A study of Mus musculus with 6 samples.

Results

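Hyalectans and the genes of hyaluronan turnover were followed through colon RNA of mice with and without the protease ADAMTS4. The set holds 10 genes out of 21899 in the deposited table, taken by their symbols: the large proteoglycans Vcan, Bcan, Acan and Ncan, the link protein gene Hapln1, the synthases Has1, Has2 and Has3, and the hyaluronan-degrading proteins Cemip and Hyal2. Both groups of mice received 2.5% dextran sodium sulfate (DSS) and were sampled after 7 days. DSS injures the colonic epithelium and causes an acute colitis. The knockout group (KO) comprised 3 libraries from Adamts4 knockout mice and the control group (WT) 3 libraries from wild-type mice. The sources used here do not give strain, sex, age, the knockout allele or the section of the colon, and untreated mice were not analysed here. A difference in strain or litter therefore cannot be told apart from the loss of the protease.

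Hyaluronan is a long unbranched sugar polymer that the HAS enzymes make at the plasma membrane and push out of the cell. Hyalectans bind it through their N-terminal end and carry chondroitin sulfate chains along the middle of the protein, and link proteins lock the complex together. ADAMTS4 cuts hyalectans at defined glutamate bonds, while CEMIP and HYAL2 break the hyaluronan chain itself. Versican is the hyalectan of connective tissue and of inflamed stroma, whereas brevican and neurocan are mainly known from the nervous system and aggrecan from cartilage.

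The bonds that make hyalectans substrates are encoded in single coding exons, and the sequences are shown because the RNA of Vcan exists in forms with and without that exon. Each line gives 36 bases of the mouse coding strand on GRCm38, read from GENCODE M21 transcripts. Capitals mark the codon of the glutamate before the cut and the codon after it.
Vcan: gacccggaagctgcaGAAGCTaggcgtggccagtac
Bcan: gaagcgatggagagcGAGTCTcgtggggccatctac
Acan: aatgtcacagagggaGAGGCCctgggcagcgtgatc
The Vcan site lies at chr13:89693203-89693238 on the minus strand and encodes glutamate 441 of the V1 form. The Bcan site lies at chr3:87994191-87994226 on the minus strand, at glutamate 395. The Acan site lies at chr7:79091046-79091081 on the plus strand, at glutamate 392 of the annotated mouse protein.

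The libraries held 15786214 to 22932125 counts. Adamts4 had 0 counts in all 3 KO libraries and 900, 992 and 997 counts in WT, at least 289-fold lower in KO against a floor of 3 counts per library (edgeR adjusted p = 0.00213). All 8 markers of colon epithelium, among them Epcam and Cdx2, had counts in every library. In a principal component analysis, KO 3 scored 73.1 on the leading axis (42.9% of the variance) and the other libraries -47.0 to 26.5. Its 7 fibroblast markers summed to 628 CPM (read counts relative to the TMM-scaled library size) against 2096 to 4459 in the other 5. Fold changes without KO 3 are also given for Cemip, Vcan, Ncan, Hapln1 and Hyal2. Whether each library is from its own animal cannot be read from the labels, so p-values reflect only the variation among these libraries, which may be technical.

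Cemip stood at a far lower level in KO than in WT, and none of the other 8 tested members had as large a fold change. Over all 14553 genes tested, edgeR called 0 of the 9 tested members lower and 0 higher at an adjusted p below 0.05, where it called 0.151% of all genes lower and 0.00687% higher. An unadjusted p below 0.05 was found for 4 members, against 13% of all genes. DESeq2, run as an alternative, called 1 member lower (Cemip) and 0 higher, where it called 2.97% of all genes lower and 0.806% higher. For 4 members the groups were fully separated. Cemip, Ncan and Has2 were lower in every KO library, as were 10.2% of all genes, and Bcan was higher in every KO library, as were 9.35%. The filter on low counts required 3 libraries at its cutoff. Ncan passed through the 3 WT libraries alone and Has2 had 1 KO library there beside the 3 of WT, so the place of both among the tested genes rested on their WT level. Acan did not pass. Has1 had 2 WT libraries and 1 KO library there. The median log2 fold change of the 9 tested members was -0.98, against 0.03 over all genes. Ncan, Has2 and Has1 enter this median, and with Cemip they are the 4 members with an unadjusted p below 0.05. The median and that count are therefore not independent of the filter.

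**Figure D1:**
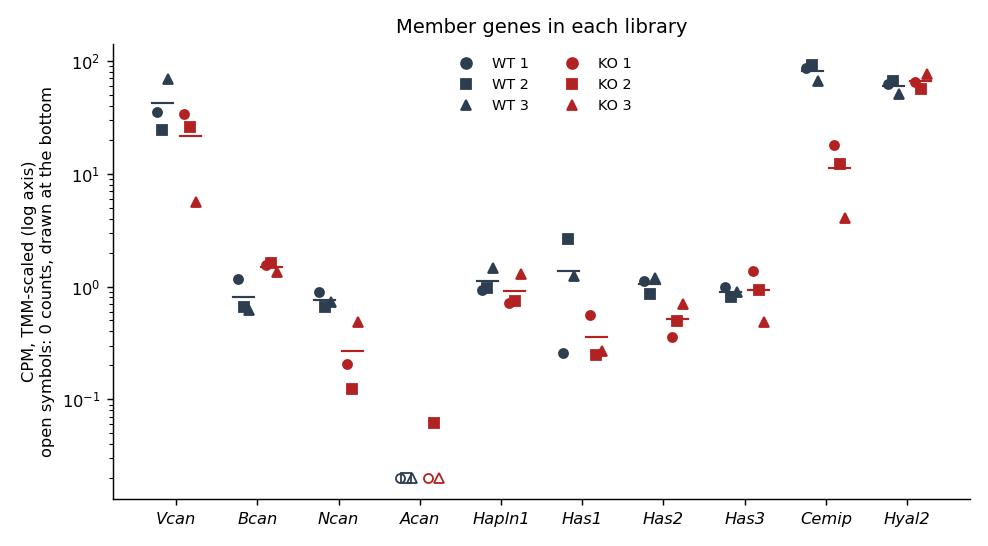
CPM of the 10 member genes in each library on a log axis, with WT in dark blue, KO in red, a horizontal line at each group mean and open symbols for libraries with 0 counts. Cemip lies at 65.9 CPM or more in WT and at 17.9 or less in KO, while Hyal2 overlaps between the groups and Acan has 1 count in all.

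Per length of transcript, the members covered a wide range. Hyal2 was the most abundant at 90.4 ± 9.66 TPM (transcript abundance per length, mean ± SD, n = 3) in WT and 70.1 ± 5.26 in KO. Cemip followed in WT at 21.2 ± 3.93 TPM and Vcan at 10.4 ± 3.69 TPM, with ranges that did not overlap. In KO the means stood in the reverse order, Vcan at 5.79 ± 2.64 TPM and Cemip at 2.89 ± 1.81, with ranges that overlapped. Cemip exceeded Vcan in 3 of 3 WT libraries, by 1.16 to 3.35 times, and lay below it in 3 of 3 KO libraries, at 0.336 to 0.606 times. An exact two-sided permutation test of this ratio gave p = 0.1, the smallest value that 3 against 3 libraries allow. All other members stayed below 2.5 TPM in every library, and in order of their mean over all libraries they were Has1, Bcan, Has2, Hapln1, Has3, Ncan and Acan. Each neighbouring pair from Has1 to Ncan overlapped in range.

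Cemip encodes a secreted and membrane-associated protein that binds hyaluronan and starts its breakdown into smaller fragments. It had 2018, 1817 and 1174 counts in WT 1, WT 2 and WT 3 and 349, 195 and 75 in KO 1, KO 2 and KO 3. Scaled to library size, WT lay at 86.3, 92.5 and 65.9 CPM and KO at 17.9, 12.1 and 4.03 CPM. Every KO library was thus well below the lowest WT library, and KO 3 was the lowest of all. The log2 fold change was -2.85 ± 0.46 (SE), a level 7.22-fold higher in WT over the pooled counts, with a 95% exact interval of 6.64 to 7.86 that covers counting error only. The edgeR adjusted p was 0.0644, just outside the threshold, and DESeq2 gave an adjusted p of 3.30e-09. Without KO 3 the log2 fold change was -2.44 and the edgeR adjusted p 0.0572. The authors' deposited table lists a log2 fold change of -2.87 and a false discovery rate of 2.17e-09.

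Markers of several cell types differed between the same libraries. The 7 fibroblast markers summed to 4023, 2285 and 628 CPM in KO 1, KO 2 and KO 3 and to 2914, 2096 and 4459 CPM in WT 1, WT 2 and WT 3. The collagens Col1a1, Col1a2 and Col3a1 made up 77.5% to 90.6% of these sums, and KO 1 exceeded WT 1 and WT 2 in the sum. Only 2 of the 7 fibroblast markers, Dcn and Pdgfra, were lower in every KO library than in every WT library. Dcn lay at 201.04, 212 and 56.5 CPM in KO and at 427, 244 and 384 CPM in WT, and Pdgfra at 108, 91.6 and 32.6 CPM in KO and at 173, 110.5 and 173 CPM in WT. The 6 endothelial markers summed to 69.7 to 225 CPM in KO and 249 to 318 CPM in WT, and without Pecam1, the most abundant of them, the sums overlapped (41.9 to 158 against 155 to 208 CPM). The 6 neutrophil markers summed to 61.7 to 69.5 CPM in KO and 125 to 402 CPM in WT, and without Ly6g, their most abundant marker, to 8.48 to 33.8 and 67.6 to 154 CPM. The 8 markers of colon epithelium summed to 24851 to 32274 CPM in KO and 17864 to 22979 CPM in WT. That separation rested on Muc2, without which the sums overlapped (9477 to 18035 against 8694 to 11581 CPM), and only Epcam of the 8 was separated by itself. No marker of these 4 lists was at 0 in any library, and edgeR called none of them. The 6 smooth muscle markers were higher in KO, at 3710 to 4484 CPM against 2105 to 3373 CPM in WT. Without Acta2, their most abundant marker, they summed to 2835 to 3530 CPM in KO and 1504 to 2586 CPM in WT. The 5 B and plasma cell markers summed to 169 to 309 CPM in KO and 538 to 1243 CPM in WT. Without Jchain these sums overlapped (18.9 to 68.4 against 50.3 to 84.2 CPM). In bulk tissue, fewer cells of a type and less RNA per cell cannot be told apart, and the part of these cell types in the Cemip values was not tested.

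Predicted genes and immunoglobulin segments were left out of the ranking by likeness. Among the other tested genes with a symbol, Il11, Selp and Slc10a6 had the profile over the 6 libraries most like that of Cemip. Likeness was the root-mean-square difference of log2 CPM after centring each gene on its own mean. It was 0.15 log2 units for Il11, a stromal cytokine, 0.35 for Selp, the endothelial and platelet adhesion molecule P-selectin, and 0.36 for Slc10a6, a steroid sulfate transporter. The same measure placed Dab2, Musk and Cd93 nearest to Vcan, at 0.20, 0.23 and 0.23. For Has1 the nearest were Ido1, Lif and Vnn3, at 0.37, 0.48 and 0.52. These distances describe 6 libraries that differ in genotype as well as in tissue makeup.

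The Cemip promoter is printed because Cemip is the member with the largest difference. RefSeq entries were found for 8 of the 10 members, all but Has2 and Has3. The 250 bases before the Cemip start site lie at chr7:84086506-84086755 on the minus strand of GRCm38.p6, and capitals mark the motif matches.
Cemip: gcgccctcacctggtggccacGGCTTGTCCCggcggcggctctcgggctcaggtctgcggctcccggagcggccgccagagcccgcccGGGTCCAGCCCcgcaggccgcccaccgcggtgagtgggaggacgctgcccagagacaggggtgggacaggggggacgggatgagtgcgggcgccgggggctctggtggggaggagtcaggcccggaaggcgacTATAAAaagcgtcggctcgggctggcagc
A TATA box (TATAAA, either strand) begins 29 bases before the start site and was also found in 12.4% of all 32851 promoters of that length. A loose NF-kappaB pattern (GGG, then 5 bases of any kind, then CC, either strand) matched at 3 positions, 2 of them overlapping, and was present in 45.8% of all promoters. The letters of the AP-1 pattern TGANTCA and of the STAT pattern TTCNNNGAA were not in this window or in those of the other 7 members, and were in 6.75% and 7.02% of all promoters. G and C made up 75.2% of the 250 bases.

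Vcan, which encodes versican, varied more between libraries of a group than between the groups. Its counts were 832, 475 and 1220 in WT and 652, 419 and 105 in KO. As CPM these were 35.6, 24.2 and 68.5 in WT 1, WT 2 and WT 3 and 33.5, 26.0 and 5.64 in KO 1, KO 2 and KO 3. KO 1 and KO 2 lay within the WT range and only KO 3 was below it. The log2 fold change of -0.98 ± 0.60 had an edgeR adjusted p of 0.531. It was -0.52 without KO 3 and -0.46 without WT 3, the library with the highest level. The order of the 6 libraries by Vcan nearly matched their order by the fibroblast marker sum, with WT 3 highest and KO 3 lowest in both. The part of the fibroblast share in the Vcan values was not tested.

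The deposited values also carry information on which forms of Vcan were counted. Versican RNA is spliced into V0 and V1, which hold the exon of the cut site printed above, and V2 and V3, which lack it. That exon, the beta chain-attachment exon, spans chr13:89688285-89693501 (5217 bases), and the alpha exon spans chr13:89702918-89705797 (2880 bases). The annotated transcripts measure 12427 bases for V0, 8332 for V1, 5702 for V2 and 2321 for V3, among 9 transcripts of 294 bases or more. For each gene, the ratio of counts to TPM is proportional to the mean length of the transcripts that the authors' quantification assigned. In 751 of 770 genes with a single annotated transcript (97.5%) this ratio gave the annotated length within 0.5% in every library.

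**Figure D2:**
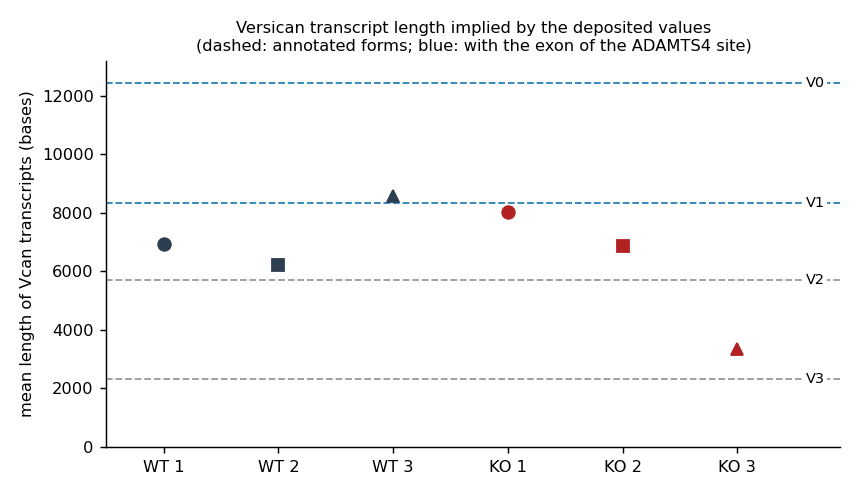
Mean length of Vcan transcripts, in bases, implied by counts and TPM in each library, with dashed lines at the annotated lengths of the 4 splice forms (blue for V0 and V1, which hold the exon of the cut site). KO 3 lies at 3349 bases and the other 5 libraries between 6222 and 8579.

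The mean Vcan transcript measured 6929, 6222 and 8579 bases in WT 1, WT 2 and WT 3 and 8046, 6881 and 3349 bases in KO 1, KO 2 and KO 3. Only KO 3 was outside the WT range. The length of 8579 bases in WT 3 required that at least 42.8% of its annotated Vcan transcripts held the exon of the cut site. The length of 3349 bases in KO 3 allowed at most 38.01%. The bounds in the other libraries were wide, for example 34.9% to 96.4% in KO 1. Between genotypes the log2 difference in length was -0.33 ± 0.36 (SE; limma adjusted p = 0.897 over 6237 genes), and it was 0.05 without KO 3. The KO 3 value rests on 105 counts, and how firmly those reads separate the forms was not tested.

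The other hyalectans were near the limit of detection. Acan, the aggrecan gene of cartilage, had 1 count in 115137892, in KO 2, and 0 in WT, which allows up to 0.0493 CPM there. Ncan had 21, 13 and 13 counts in WT and 4, 2 and 9 in KO, with all KO values below all WT values. Its log2 fold change was -1.46 ± 0.56 (edgeR adjusted p = 0.336), and -2.15 ± 0.61 without KO 3 (adjusted p = 0.269). Bcan had 27, 13 and 11 counts in WT and 30, 26 and 25 in KO, the only member whose KO values all exceeded those of WT per library size. Bcan lay at 1.15, 0.662 and 0.617 CPM in WT and at 1.54, 1.61 and 1.34 CPM in KO (log2 fold change 0.87 ± 0.39, edgeR adjusted p = 0.395). In TPM the Bcan groups overlapped, with WT 1 at 0.944 and KO 3 at 0.696. The mean length assigned to Bcan was 2240 bases in WT 1 and 3137 to 3142 in the other 5 libraries. Markers of enteric glia, a cell type of the gut nervous system, summed to 313 to 361 CPM in KO and 391 to 548 CPM in WT. Erbb3 made up 93.2% to 95.6% of these sums, and the other 4 markers overlapped at 13.7 to 23.4 CPM in KO and 21.4 to 26.5 CPM in WT. Their part in the Ncan and Bcan values was not tested.

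Hapln1, which encodes the link protein that fixes hyalectans to hyaluronan, had 22, 19 and 26 counts in WT and 14, 12 and 24 in KO. The groups overlapped, and the log2 fold change was -0.28 ± 0.42 (edgeR adjusted p = 0.816). Without KO 3 it was -0.61 ± 0.47 (adjusted p = 0.674).

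The 3 hyaluronan synthase genes were low in every library. Together they summed to 1.010, 3.11 and 1.85 TPM in WT 1, WT 2 and WT 3 and 1.11, 0.751 and 0.610 TPM in KO 1, KO 2 and KO 3, which overlapped. Has1 was uneven within WT, with 6, 52 and 22 counts against 11, 4 and 5 in KO. WT 1 thus lay among the KO libraries, and the Has1 log2 fold change of -1.89 ± 0.81 (edgeR adjusted p = 0.381) was -0.99 without WT 2. Has2, the synthase needed for heart development, had 26, 17 and 21 counts in WT and 7, 8 and 13 in KO. All 3 KO values were below the WT values at 0.360, 0.496 and 0.698 CPM against 1.11, 0.866 and 1.18 CPM. The Has2 log2 fold change was -1.02 ± 0.42 (edgeR adjusted p = 0.367), and the pooled counts gave a level 2.04-fold higher in WT with an exact 95% interval of 1.29 to 3.30 for counting error. On the annotation Has2 is overlapped in part by the antisense gene Has2os (Has2 at chr15:56665627-56694539, Has2os at chr15:56689944-56778399). Without a stated use of strand, reads from the stretch that both span cannot be told apart. Has3 had 23, 16 and 16 counts in WT and 27, 15 and 9 in KO, with a log2 fold change of 0.05 ± 0.46 (edgeR adjusted p = 0.971) whose sign was negative in 6 of 14 alternative fits.

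**Figure D3:**
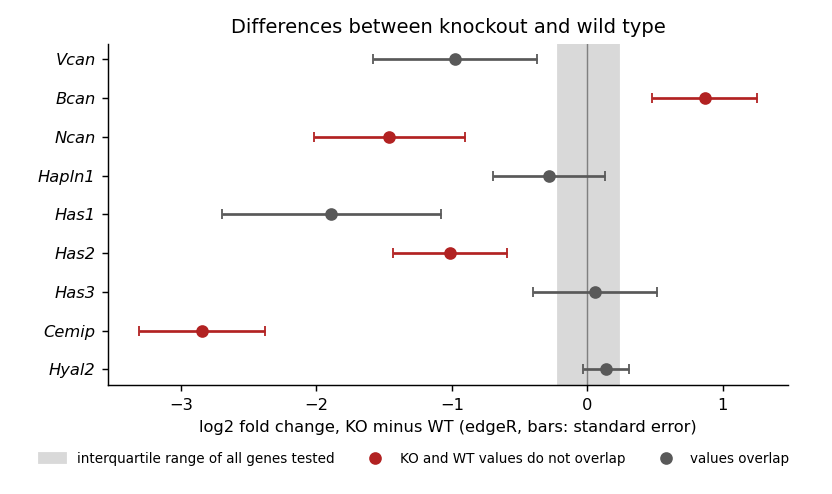
Log2 fold change of KO against WT for the 9 members tested, with bars of 1 standard error, red where the groups were fully separated, and a grey band for the interquartile range of all 14553 genes. Cemip lies farthest from 0 at -2.85, and Has3 at 0.05 and Hyal2 at 0.14 lie inside the band.

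Hyal2, a hyaluronidase anchored to the cell surface that cuts long hyaluronan chains into intermediate ones, gave opposite signs in reads and in transcripts. Its counts were 1460, 1311 and 901 in WT and 1267, 901 and 1434 in KO. As CPM they were 62.4, 66.8 and 50.6 in WT and 65.1, 55.8 and 77.0 in KO, which overlapped. The edgeR log2 fold change was 0.14 ± 0.17 (adjusted p = 0.769), so its positive sign lies within its error. It was 0.013 without KO 3 and 0.031 without WT 3. In TPM the same libraries stood at 86.6, 101 and 83.2 in WT and at 75.8, 65.4 and 69.2 in KO, with every KO value below every WT value. An exact two-sided permutation test of the Hyal2 TPM gave p = 0.1, the smallest value possible here. The share of all genes separated in TPM was not counted. Limma on log2(TPM + 1) gave -0.36 ± 0.16 (adjusted p = 0.412), and the authors' deposited table lists -0.37.

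**Figure D4:**
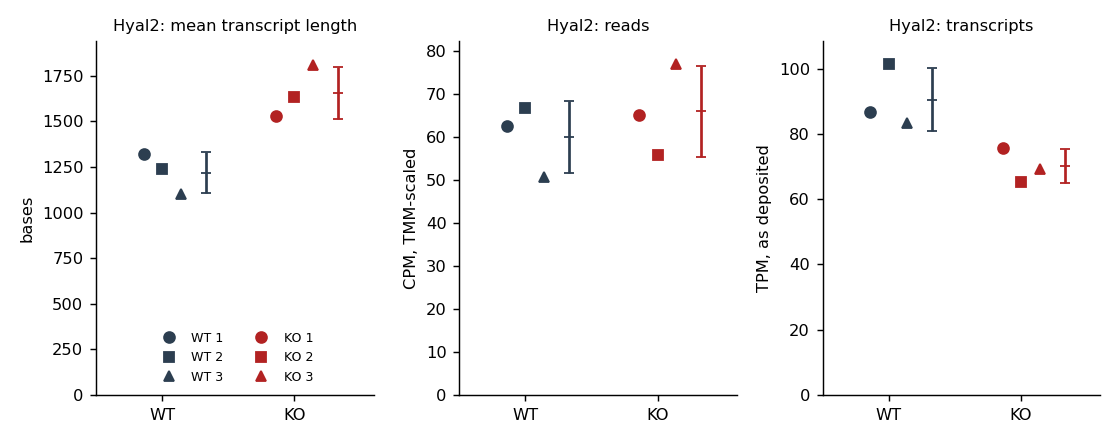
Hyal2 in each library, with mean and SD beside the points: mean transcript length in bases, reads as CPM and transcripts as TPM. The lengths lie at 1102 to 1320 bases in WT and 1529 to 1811 in KO, the CPM overlap, and the TPM are lower in all 3 KO libraries.

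These scales differ by the length of transcript assigned. The mean Hyal2 transcript measured 1320, 1237 and 1102 bases in WT 1, WT 2 and WT 3 and 1529, 1633 and 1811 bases in KO 1, KO 2 and KO 3. The means were 1220 ± 110 bases in WT and 1658 ± 143 in KO (SD, n = 3), and every KO value was above every WT value, as in 8.27% of the genes tested for length. The log2 difference in length was 0.44 ± 0.09 (SE). It was as large or larger in absolute size in 0.481% of the 6237 genes tested, all of which varied in length between libraries. In the other direction, every KO value was below every WT value in 5.66% of them. Limma called 0 of these genes longer and 0 shorter in KO at an adjusted p below 0.05 (Hyal2 adjusted p = 0.397). An unadjusted limma p below 0.05 was found for 495 genes (7.94%), Hyal2 among them. The annotation lists 7 Hyal2 transcripts of 323 to 2968 bases at chr9:107567945-107572779, of which the longest is a single unspliced exon and the 4-exon form has 1893 bases. Which of them account for the longer mean in KO cannot be read from these values. Cemip, by contrast, was assigned a mean of 7111 to 7115 bases in all 6 libraries, the length of its longest annotated transcript. Cemip expressed as a share of Hyal2 TPM was 25.7%, 24.1% and 20.2% in WT and 5.92%, 4.97% and 1.33% in KO.

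Around the members, 57 further genes of the pathway were followed in 6 lists chosen by function. Of these 51 were tested, edgeR called 0 lower and 0 higher, 11 had an unadjusted p below 0.05 (13% of all genes did), and DESeq2 called 7 lower and 0 higher, where it called 2.97% of all genes lower and 0.806% higher. The median log2 fold change of the 51 was -0.16, and 31 lay below 0 (60.8%, against 45.8% of all genes).

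Precursor supply, the enzymes that make the 2 sugar nucleotides from which hyaluronan is built, had 6 of 7 genes above 0 (median 0.31). The exception was Gfpt2, an isoform of the enzyme that commits fructose 6-phosphate to hexosamine synthesis, with 18.01 ± 5.55 CPM in WT and 3.54 ± 1.44 in KO (SD, n = 3). Its log2 fold change of -2.35 ± 0.38 had an edgeR adjusted p of 0.0644 and a DESeq2 adjusted p of 2.20e-07. The more abundant isoform Gfpt1, named here after its values were seen, stood at 823 ± 58.6 CPM in WT and 957 ± 243 in KO (log2 fold change 0.22 ± 0.23). Gnpnat1, the next enzyme of the route, lay at 82.0 ± 5.48 CPM in WT and 121 ± 19.2 in KO (log2 fold change 0.56 ± 0.15, edgeR adjusted p = 0.200). Ugp2, which makes UDP-glucose, had a log2 fold change of 0.47 ± 0.22.

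Proteins that cross-link hyaluronan included the lowest log2 fold change of the 6 lists. Of 11 genes, 8 were tested and 6 lay below 0 (median -0.31), and DESeq2 called 3 lower, against the 2.97% of all genes. Itih3, a heavy chain of the inter-alpha-trypsin inhibitor family that is transferred onto hyaluronan, lay at 4.37 ± 0.695 CPM in WT and 1.04 ± 0.216 in KO (log2 fold change -2.06 ± 0.31, edgeR adjusted p = 0.0595, DESeq2 adjusted p = 3.12e-05). Ptx3, the long pentraxin that stabilises hyaluronan matrix, averaged 4.15 ± 3.72 CPM in WT and 0.506 ± 0.387 in KO (log2 fold change -2.997 ± 0.81). Tnfaip6, which encodes the heavy-chain transferase TSG-6, averaged 2.66 ± 0.532 CPM in WT and 0.769 ± 0.444 in KO (log2 fold change -1.79 ± 0.50). The heavy chain Itih2, outside the 3 genes with the smallest p and named after its values were seen, had a log2 fold change of 1.56.

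**Figure D5:**
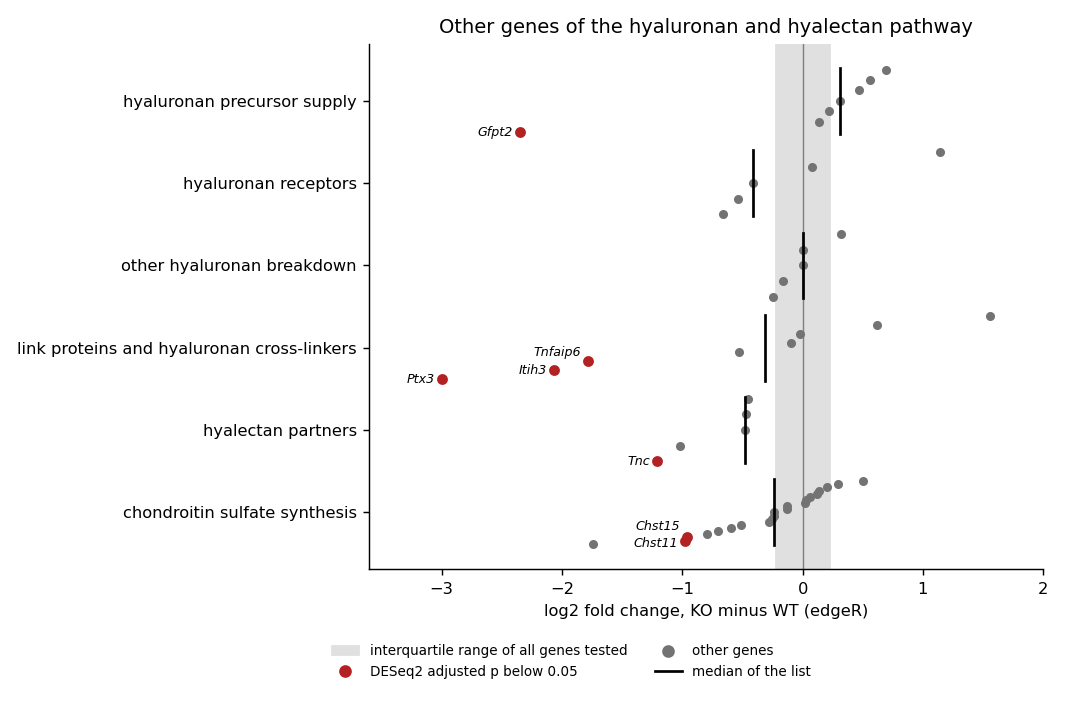
Log2 fold change of the 51 tested pathway genes by list, with a black line at each list's median and a grey band for the interquartile range of all genes tested. The 7 genes in red had a DESeq2 adjusted p below 0.05 and all lie below 0, from -0.96 (Chst15) to -2.997 (Ptx3).

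Of the 5 receptor genes 3 lay below 0 (median -0.41) and none was called by either tool: Cd44, the main hyaluronan receptor of leukocytes and epithelium, named after its values were seen, stood at 68.4 ± 6.33 CPM in WT and 72.1 ± 1.07 in KO. The motility receptor Hmmr had a log2 fold change of 1.14 ± 0.52 (edgeR adjusted p = 0.399), and the lymphatic receptor Lyve1 of -0.66 ± 0.47. Of the 8 other breakdown genes 5 were tested and none was called by either tool. Cemip2, a cell-surface relative of Cemip, had a log2 fold change of -0.25 ± 0.23, and Gusb, the lysosomal beta-glucuronidase, of -0.16 ± 0.19. The 5 partners of hyalectans all lay below 0 (median -0.48). Tnc, which encodes tenascin-C, averaged 384 ± 70.7 CPM in WT and 166 ± 71.3 in KO (log2 fold change -1.21 ± 0.33, edgeR adjusted p = 0.196, DESeq2 adjusted p = 0.0066). The fibulins Fbln2 and Fbln1 had log2 fold changes of -1.02 ± 0.45 and -0.48 ± 0.36, in libraries whose fibroblast sums differed as given above.

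Chondroitin sulfate synthesis, which builds the chains that hyalectans carry, had 13 of 21 genes below 0 (median -0.24). Chst11, a sulfotransferase for position 4 of the chain's hexosamine, lay at 21.8 ± 2.89 CPM in WT and 11.1 ± 0.982 in KO, with no overlap (log2 fold change -0.98 ± 0.18, edgeR adjusted p = 0.0848, DESeq2 adjusted p = 0.000496). Chst15, which adds a further sulfate, lay at 38.3 ± 1.80 CPM in WT and 19.7 ± 7.29 in KO (log2 fold change -0.96 ± 0.27, edgeR adjusted p = 0.207, DESeq2 adjusted p = 0.0247). Chsy1, a chain polymerase, had a log2 fold change of -0.60 ± 0.18 (edgeR adjusted p = 0.240). In this list 5 genes had KO values below all WT values, against the 10.2% of all genes given above.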

How the data were processed

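Per the labels' protocols, colon RNA was isolated with Trizol and made into libraries with a SMARTER kit. No aligner, counting tool or strand setting is named in the sources used here. Builds GRCm38, mm10 and mm39 appear in the submitters' processing notes. The deposited counts are whole numbers per gene. Their ratio to TPM follows transcript lengths assigned per library, so they may be rounded estimates from transcript-level quantification, and intervals computed from them leave out the error of that step. The deposited TPM are relative abundances that correct for transcript length. The deposited log2 fold change is, per the file headers and values, the log2 ratio of the authors' mean TPM. The deposited p-value and false discovery rate come from the authors' own comparison.

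Counts were tested with edgeR 4.0.16 (R 4.3.3): TMM factors, filterByExpr by group (minimum count 10) and the quasi-likelihood F-test over 14553 genes, with Benjamini-Hochberg adjusted p below 0.05 as a call. Fold changes are KO minus WT, and the standard error is derived from the F statistic. DESeq2 1.42.0 and limma 3.58.1 were alternatives. CPM are scaled by the TMM factors. Mean transcript lengths are counts over TPM, scaled on genes with 1 transcript in GENCODE M21. Log2 length was tested with limma for genes with several transcripts and at least 100 counts and 1 TPM in every library. Genes whose length hardly varied between libraries were left out, so shares of the 6237 genes tested describe genes of varying length. This measure of length was added after the data were seen. Likeness used log2 CPM of tested genes with a symbol, without predicted genes and immunoglobulin segments. Named genes were Adamts4, all members, up to 3 genes with the smallest p per list, and the 3 most alike genes. A gene that this rule names is not reported here. The members and lists were chosen with earlier results of these data known. The scripts were tested on simulated data. Marker lists not described above were macrophage and monocyte, enteric neuron, mesothelium and adipocyte. In this order they summed to 71.7 to 263, 38.6 to 49.3, 12.1 to 13.7 and 48.4 to 85.2 CPM in KO. In WT they summed to 197 to 374, 46.3 to 70.0, 10.7 to 35.1 and 25.0 to 311 CPM.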

Additional observations from a re-analysis of the deposited data

How the results depend on the processing

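Of the 4 counts of calls, members called higher and pathway genes called higher stayed at 0 in all 15 alternative fits. Members called lower numbered 1, namely Cemip, with DESeq2, limma-voom, no count filter, the replicate block and limma on log2(TPM + 1), and 0 in the other 10 fits. Cemip had log2 fold changes of -2.85 (DESeq2), -3.08 (limma-voom, adjusted p = 0.04998), -2.84 (no count filter, 0.0385), -3.05 (replicate block, 0.0176) and -2.62 (limma on log2(TPM + 1), 0.0402), and its adjusted p lay between 0.0523 and 0.254 when each library was left out in turn. Pathway genes called lower numbered 7 with DESeq2, 2 with no count filter and 1 with limma on log2(TPM + 1). Hyal2 changed sign only with TPM, to -0.36 with either pseudocount (-0.359 with 1 and -0.363 with 0.1). Has3 was negative with limma-voom (-0.061), the replicate block (-0.026), limma on log2(TPM + 1) (-0.015) and on log2(TPM + 0.1) (-0.11), and ranged from -0.36 to 0.37 when a library was left out. The difference in Vcan length ranged from -0.58 to 0.052 when a library was left out, the positive value without KO 3. The cause of these shifts was not tested. All other member fold changes kept their sign and their side of the threshold. Whether equal replicate numbers share a litter or batch cannot be read from the labels. Deviations of same-numbered libraries correlated at -0.42, -0.15 and -0.43 over genes, which does not settle it because tissue makeup also differed between libraries. The replicate block called 78 genes lower and 3 higher in all, against 22 and 1 in the main fit. The fit at 200 counts gave no value for Vcan length, whose lowest count was 105. The lowest tested member, Ncan, had 15 counts over KO.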

Other observations

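The authors' deposited table lists a log2 fold change of 2.42 for Acan, the second largest in absolute size among the members after Cemip. It rests on 1 count in KO 2 and a mean TPM of 0 in WT that the table gives as 0.001. Vcan in KO 3 was shifted to shorter transcripts relative to the median of the other 5 libraries. In the same library 0.144% of the 6237 genes of varying length were shifted down at least as far. Vcan was looked at here after its KO 3 value was seen. That value rests on 105 counts, just above the minimum of 100, where a mean length is less firm than in genes with more reads.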
